A study of Mus musculus with 6 samples.

Results

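Oxidative phosphorylation uses an electron transport chain of 4 complexes and an ATP synthase (complex V) in the inner mitochondrial membrane. The genes examined were the rows whose symbols match the naming patterns of the subunits of these complexes (Nduf with a, b, c, s or v and a digit, Uqcr, Cox followed by 4 to 8, Sdh with a, b, c or d, Atp5, and the mitochondrial mt-Nd, mt-Co, mt-Cyt and mt-Atp genes), with pseudogene names left out. The patterns found 99 genes among 33924 in the table, of which 86 lie in the nuclear genome and 13 in the mitochondrial genome. Complex I had 44 of them (37 nuclear, 7 mitochondrial), complex II 4, complex III 9, complex IV 22 and complex V 20. The patterns also caught 5 genes that are not subunits: Cox4nb, a part of the ER membrane complex, Atp5sl, a complex I assembly factor, Atp5s, the coupling factor B, Cox7a2l, a supercomplex assembly factor, and Atp5l2, later annotated as a pseudogene of Atp5l.

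The tissue was the retinal pigment epithelium (RPE) scraped together with the choroid from mouse eyes. C57BL/6J wild-type mice were studied as a young group of 3, labelled 1 to 2 months old (the methods give a slightly older range), and an aged group of 3, labelled 20 to 24 months in the titles and 22 to 24 months in another field. All 6 mice are labelled male, whereas the methods describe mice of either sex. Total RNA was sequenced after removal of ribosomal RNA, without selection for poly(A), in 1 library per mouse. The table holds 1 mean per gene over all 6 libraries, termed the listed mean here, and no value per library or group. The authors' own columns comparing young with aged mice were not used, so no age difference and no error is given, and every level below is the authors' pooled mean. The depth of the libraries is unknown from the table, and no difference between genes below was tested.

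Complex I, the NADH dehydrogenase, and complex II, the succinate dehydrogenase, pass electrons to ubiquinone. Complex III, the cytochrome bc1 complex, hands them to cytochrome c, and complex IV, cytochrome c oxidase, hands them to oxygen. The proton gradient built by complexes I, III and IV drives the ATP synthase. The RPE is known for a heavy reliance on this pathway, since it leaves much of the glucose that crosses it to the photoreceptors. Complexes I, III, IV and V are built from products of both genomes, and complex II is wholly nuclear.

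Most of the subunit genes lay high among the protein-coding genes of the table. To compare genes, each listed mean was divided by the length of the gene's longest protein-coding transcript in kilobases, which gives a level per kb. Since the authors' values started from TPM, a unit already scaled by length, it is not certain that they grow with length as read counts do, and the division may correct for length again. Across 13850 protein-coding genes they did grow with length (Spearman correlation 0.29, as a description). Listed means are therefore given beside the levels of most genes named, and an order of genes per kb holds for the longest transcript unless said otherwise. The median level per kb was 1820.5 over the 99 genes, against 72.7 over 19139 protein-coding genes of the table. The medians of the listed means themselves were 1530.5 and 210.9, a smaller contrast. The 19139 genes include 2669 listed at 0. Over the 13850 with a listed mean of at least 10, the medians were 155.5 per kb and 486.6 by listed mean. Per kb of the longest transcript, the median of the subunit genes lay above 97.6% of the 19139 protein-coding genes. By the same level, 75 of the 99 genes (75.8%) were above 90% of these protein-coding genes, and 91 were above their median. A listed mean of at least 10 was reached by 94 of the 99. Together the 99 genes held 1.61% of the summed listed means of the table.

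Nuclear and mitochondrial genes had nearly the same median level per kb, 1818 and 1820.5, with a very different spread. The ratio of the mitochondrial to the nuclear median, 1.00 here, was 0.58 per kb of coding length and 0.59 by listed mean, so the near equality rests on the length used. The upper quartile was 3.24 times the lower quartile among the 86 nuclear genes and 44.1 times among the 13 mitochondrial genes. The mitochondrial genes held 32.5% of the summed listed means of all 99 genes, and mt-Co1 alone held 24.6%. Without mt-Co1 the share of the mitochondrial genes was 10.5%. With mt-Co1 counted, the mitochondrial genes held 14.6% of the summed levels per kb of coding length. Their share of the listed means was 9.21% when genes with under 50% own sequence, mt-Co1 among them, were left out.

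The 13 mitochondrial genes spanned a 4973-fold range of levels per kb. mt-Co1, the catalytic core of complex IV, had a listed mean of 76171, rank 11 in the whole table, and a level per kb of 49301. mt-Nd1, a core subunit in the membrane arm of complex I, followed at 7999 (8358 per kb), so that mt-Co1 was 2.62 times higher per kb. mt-Cytb, the cytochrome b of complex III, had a listed mean of 5419 (4737 per kb). The next genes all encode core subunits of complex I. mt-Nd2 had a listed mean of 3307 (3186 per kb), mt-Nd4 one of 2905 (2108 per kb) and mt-Nd5 one of 3552 (1947 per kb). mt-Nd6, which is encoded on the opposite strand to all the others, had 945 (1820.5 per kb).

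The remaining 6 mitochondrial genes were far lower, and these are the genes between mt-Co1 and mt-Nd4 on the mitochondrial genome. mt-Co3 and mt-Co2, the other core subunits of complex IV, had listed means of 247 (315 per kb) and 49.5 (72.3 per kb). mt-Nd3 had 101.3 (291 per kb) and mt-Nd4l 2.94 (9.91 per kb). mt-Atp6 and mt-Atp8, membrane subunits of the ATP synthase, had 21.5 (31.5 per kb) and 4.45 (21.8 per kb). mt-Co1 and mt-Co2, which stand in a fixed ratio in the enzyme, thus lay far apart in the table. mt-Nd4l and mt-Nd4 lie on a shared mRNA, yet the level per kb of mt-Nd4l was only 0.0047 of that of mt-Nd4. For mt-Atp8 and mt-Atp6, which also share an mRNA, the ratio was 0.69 per kb and 0.21 by listed mean.

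Most of the low genes are ones whose sequence also occurs in the nuclear genome. As a measure of this, each gene's transcripts were cut into all their stretches of 31 bases (words), and the words that occur in no transcript of another gene were counted as the gene's own. mt-Co2 had 0% own words, mt-Co3 0.13%, mt-Atp6 0.46%, mt-Nd4l 1.12% and mt-Nd3 1.89%. The 5 genes had levels per kb of 9.91 to 315, with a median of 72.3. mt-Nd1, mt-Cytb, mt-Nd6, mt-Nd2 and mt-Nd5 had 100%, 93.4%, 92.6%, 86.5% and 83.2% own words, and levels per kb of 1820.5 to 8358, with a median of 3186. mt-Co1 and mt-Nd4 lay between, with 36.1% and 37.2%, and both were high. mt-Atp8 was the exception, with 92.5% own words and a level per kb of 21.8. Own words were counted against annotated transcripts only, so a nuclear copy without annotation would not be seen.

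Nearly all words of these 5 low genes lie in a nuclear copy of mitochondrial DNA on chromosome 1 (chr1:24611535-24616197, GRCm38, minus strand, 4663 bases). The annotation splits this stretch into 7 unprocessed pseudogenes: Gm28439, Gm10222, Gm28438, Gm28437, Gm10925, Gm28661 and Gm29216. Gm28661 holds 100% of the coding words of mt-Co2, Gm10925 100% of those of mt-Atp6, Gm10222 100% of those of mt-Nd4l, Gm28437 99.9% of those of mt-Co3 and Gm28438 99.0% of those of mt-Nd3. Gm28439 holds 62.8% of the coding words of mt-Nd4 and Gm29216 29.5% of those of mt-Co1. Another nuclear copy lies on chromosome 2, where Gm13340 holds 45.1% of the coding words of mt-Co1 and had a listed mean of 277, and Gm13341 holds 46.9% of those of mt-Co2 and had 73.5. Of the 7 copies, 2 matched a symbol in the table, Gm10925 with a listed mean of 25 and Gm10222 with 0.835. Between the annotated ends of Gm10925 and Gm28661 a gap of 233 bases lies at the place of mt-Atp8, which is 204 bases long. That gap is in none of the 7 pseudogenes, and whether it holds the sequence of mt-Atp8 was not examined. The own words of mt-Atp8 therefore do not tell whether it has a nuclear copy. The part of read sharing in the low listed means was not tested.

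The coding sequences of mt-Nd4l (chrM:9877-10173, plus strand) and mt-Atp8 (chrM:7766-7969, plus strand), beside the first 120 bases of mt-Nd1 (chrM:2751-3707, plus strand), show the contrast between a wholly shared gene, a low gene with mostly own words and a high gene with own words only. Sequences are from the GENCODE M21 transcripts (GRCm38), 5′ to 3′, and capitals mark bases covered by a 31-base word that another annotated gene also holds.
mt-Nd4l: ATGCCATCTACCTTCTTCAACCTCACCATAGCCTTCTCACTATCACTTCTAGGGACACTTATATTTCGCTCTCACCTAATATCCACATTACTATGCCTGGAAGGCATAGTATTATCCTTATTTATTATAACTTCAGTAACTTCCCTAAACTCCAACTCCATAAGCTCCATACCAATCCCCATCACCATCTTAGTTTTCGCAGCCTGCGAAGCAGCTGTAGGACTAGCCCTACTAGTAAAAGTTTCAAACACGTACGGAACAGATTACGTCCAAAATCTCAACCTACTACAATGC
mt-Atp8: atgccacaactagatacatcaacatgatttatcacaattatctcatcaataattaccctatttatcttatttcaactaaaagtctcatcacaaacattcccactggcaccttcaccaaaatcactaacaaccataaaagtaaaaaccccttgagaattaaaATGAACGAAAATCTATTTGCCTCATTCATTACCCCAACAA
mt-Nd1: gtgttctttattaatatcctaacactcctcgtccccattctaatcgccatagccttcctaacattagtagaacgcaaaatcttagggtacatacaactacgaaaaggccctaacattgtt
All 294 coding bases of mt-Nd4l are in capitals. In mt-Atp8 the 40 capitals are its overlap with the start of mt-Atp6. In mt-Nd1, 0 of the 120 printed bases are in capitals.

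Complex I had the lowest median per kb of the complexes, 1411, while by listed mean complex IV was lowest (1214 against 1445 for complex I). The nuclear genes of complex I were even, with an upper quartile 2.29 times the lower. The 7 nuclear core subunits, which carry the flavin and the iron-sulfur clusters, had a median level per kb of 1334. Ndufs3 was the lowest of them, with a listed mean of 845 (808 per kb), and 34.4% of its coding words were its own. The 30 genes of the accessory group ranged from 112 to 6200.1 per kb and had a median of 1330.0.

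Ndufa4 on chromosome 6 (chr6:11900292-11907497, minus strand), which is found in complex IV despite its name, was the highest nuclear gene of this group, at 3782 (6200.1 per kb). The accessory subunits Ndufb9 and Ndufa13 followed at 2821 (4006 per kb) and 3634 (2905 per kb). Their order turned per kb of coding length, at 5252 and 8413, where Ndufb11 (5724) and Ndufa1 (5596) also lay above Ndufb9. Per kb of median transcript length Ndufb8 (4677) lay above Ndufb9 (4006), among others. The lowest was Ndufa4l2, the hypoxia-inducible relative of Ndufa4, at 104.6 (112 per kb). Ndufb2 had a listed mean of 998, which its transcript of 4371 bases turned into 228 per kb. Ndufb4 had 315 (325 per kb), and 0% of its coding words were its own. The processed pseudogene Ndufb4c holds all 357 of them.

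Complex II had the narrowest range. Sdhb, the iron-sulfur subunit, had a listed mean of 2699 (2363 per kb) and Sdhd, a membrane anchor, 2874 (2335 per kb). Sdha, which binds the flavin, had 6242 (2153 per kb). The place of Sdhc, the other anchor, turned with the length: its listed mean of 3138 was 1.16 times that of Sdhb, and its level was 990 per kb of its longest transcript, but the highest of the 4 per kb of median transcript length (3851 against 2363 for Sdhb) and of coding length (6189.8 against 3190.4). For all 4 genes at least 98.1% of the words were their own.

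Complex III had the highest median per kb, 3173, while by listed mean complex II was highest (3006) and complex III second (2491). The 3 nuclear core genes were close to each other per kb of the longest transcript. Uqcrc1 and Uqcrc2, the core proteins, had listed means of 3273 (1979.8 per kb) and 3511 (1852 per kb), and Uqcrfs1, the Rieske iron-sulfur protein, had 2491 (1828 per kb). The small subunits were higher per kb: Uqcrh, the hinge protein, had 3716 (6794 per kb), Uqcr11 had 2362.5 (5309 per kb) and Uqcr10 had 2178 (5018 per kb). Uqcrq, another small subunit, had the lowest listed mean, 581 (382 per kb). These orders depend on the length used. Per kb of median transcript length Uqcrc1 was at 6139.9, above Uqcr11 and Uqcr10, beside 2978 for Uqcrc2 and 1828 for Uqcrfs1. Per kb of coding length Uqcrq, at 2363, lay above Uqcrc1 at 2273.

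The nuclear genes of complex IV reached from 0 to 10219 per kb, and its isoform families include forms of other tissues. The structural subunit Cox4i1 (chr8:120668222-120674207, plus strand) led, with a listed mean of 7817 (10219 per kb). Cox8a had 4536 (8247 per kb) and Cox6b1 3447 (5578 per kb). Per kb of coding length Cox8a (21913) lay above Cox4i1 (15419). At the other end Cox8c was listed at 0, and Cox7b2, Cox6b2 and Cox4i2 had 0.306 (0.564 per kb), 76.5 (131 per kb) and 141 (193 per kb).

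Complex V had a median of 2126 per kb, and its highest listed means were those of its catalytic head. Atp5b, the catalytic beta subunit (chr10:128083273-128090391, plus strand), had a listed mean of 25737 (13432.5 per kb), rank 47 in the table. Atp5a1, the alpha subunit, had 20885 (7810.5 per kb), rank 58. The enzyme holds equal numbers of both, and the ratio of Atp5a1 to Atp5b was 0.81 by listed mean and 0.58 per kb. Together they held 22.3% of the summed listed means of the nuclear genes. Atp5c1, the gamma subunit of the central stalk, was at 5576 (3214 per kb), and Atp5d, the delta subunit, was the lowest of the 5 head and central stalk genes at 1414 (1003 per kb). Atp5k, the small e subunit of the membrane part, followed per kb, with 2718 (7325 per kb). This order turned with the length: Atp5k lay above Atp5a1 per kb of median transcript length (8453 against 8119) and of coding length (12759 against 12589), and per kb of coding length the small epsilon subunit Atp5e (16254) was level with Atp5b (16217).

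The 4 peripheral stalk genes, Atp5f1, Atp5h, Atp5j and Atp5o, lay between 1809 and 3122 per kb. Among the groups by role in complex V, the 6 nuclear genes of the membrane part were the least even, at 49.7 to 7325 per kb. The lowest nuclear genes of complex V were Atp5l2 at 6.23 (20.0 per kb), Atp5g2 at 37.4 (49.7 per kb) and Atp5l, the g subunit, at 70.2 (129 per kb). Atp5g2, Atp5l and Atp5g1 were the nuclear genes of complex V with 0% own coding words.

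Other genes, most of them processed pseudogenes, hold coding words of 27 nuclear genes, counting copies with at least 25% of a gene's coding words. Among them Gm49356, Gm42420 and Gm27021 overlap Ndufb9, Ndufb2 and Cox4nb on the chromosome. No such count is given for all protein-coding genes, so the 27 cannot be set against a general share. Of the 35 pairs of a nuclear gene and a copy, 20 had the copy listed, and the others could not be compared. In 3 of the 27 genes, a listed copy had a higher listed mean than the gene itself. Atp5l had 70.2 and its copy Gm10221 on chromosome 5 (chr5:24581554-24581862, minus strand) had 1551, 22.1 times as much. Gm10221 holds 100% of the 279 coding words of Atp5l. Cox7c, a small subunit of complex IV, had 306 and its copy Gm12338 on chromosome 11 (chr11:75599763-75599954, minus strand) had 1579, 5.16 times as much, again with 100% of the coding words. Ndufs5 had 364 and its copy BC002163, with 80.9% of the coding words, had 556. Near-equal means were listed for Atp5h (2129) and Gm10250 (1957) and for Atp5g1 (1117) and Gm10039 (937). How reads were divided between a gene and its copy cannot be told from the table, so the levels of these genes are uncertain.

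The coding sequences of Cox7c (chr13:86044816-86046904, minus strand, 189 bases) and the first 300 of 309 coding bases of Atp5l (chr9:44912557-44920742, minus strand) are shown because no 31-base word of either coding sequence is the gene's own. Over the whole transcripts, 75.5% of the words of Cox7c and 89.3% of those of Atp5l are their own. The coordinates are those of the whole gene. Capitals have the same meaning as for the mitochondrial genes.
Cox7c: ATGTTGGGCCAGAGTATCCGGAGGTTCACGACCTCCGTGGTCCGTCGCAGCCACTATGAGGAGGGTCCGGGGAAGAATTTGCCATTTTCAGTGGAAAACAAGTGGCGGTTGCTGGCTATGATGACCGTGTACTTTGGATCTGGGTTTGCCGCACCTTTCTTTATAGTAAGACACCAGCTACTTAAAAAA
Atp5l: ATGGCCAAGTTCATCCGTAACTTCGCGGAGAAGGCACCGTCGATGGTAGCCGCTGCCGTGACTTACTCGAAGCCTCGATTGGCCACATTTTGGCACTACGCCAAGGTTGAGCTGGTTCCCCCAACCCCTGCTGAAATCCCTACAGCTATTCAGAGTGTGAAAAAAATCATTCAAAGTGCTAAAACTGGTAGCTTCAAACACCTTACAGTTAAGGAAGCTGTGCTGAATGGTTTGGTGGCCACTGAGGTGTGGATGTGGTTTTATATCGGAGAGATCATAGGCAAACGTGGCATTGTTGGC
Of the 85 nuclear genes with a coding sequence, 15 (17.6%) had under 50% own coding words, against 12.2% of 19137 protein-coding genes of the table. The median level per kb was 1041 in these 15 and 1839.7 in the other 70. With the mitochondrial genes, 7 of 13 (53.8%) had under 50%.

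**Figure D1:**
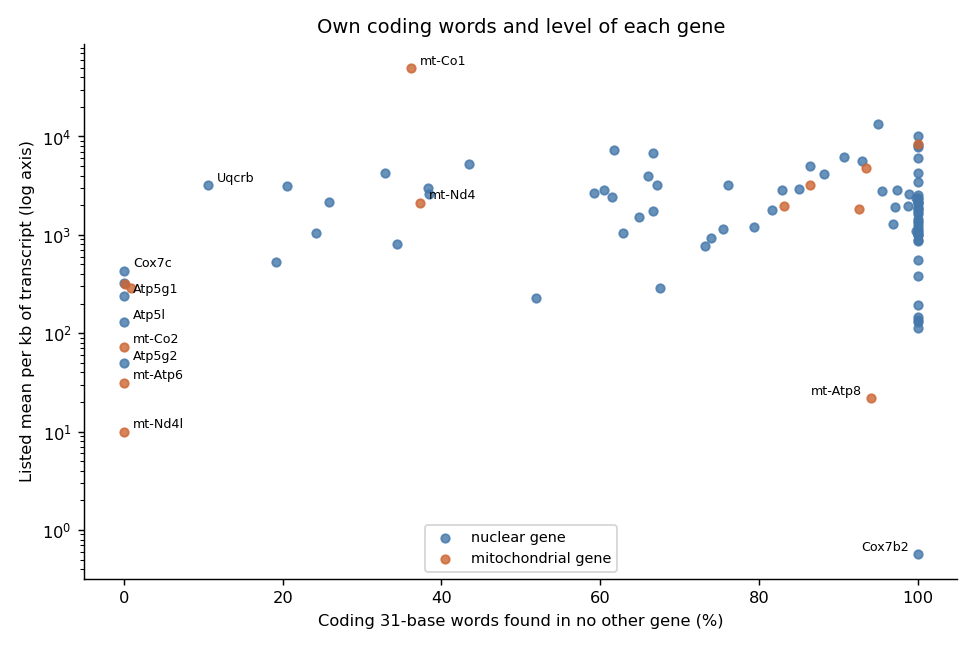
Level per kb (log axis) of each gene against the percentage of its coding 31-base words found in no other gene, with nuclear genes in blue and mitochondrial genes in orange. Genes with 0% own coding words lie between 9.91 (mt-Nd4l) and 431 per kb (Cox7c) with the longest transcript as the length (up to 2737 for Atp5g1 per kb of coding length), whereas genes with few own words can still be high, as Uqcrb with 10.6% at 3173 per kb and mt-Co1 with 36.2% at 49301 per kb; Cox8c, listed at 0, and Atp5l2, which has no coding sequence in the annotation, are not drawn.

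**Figure D2:**
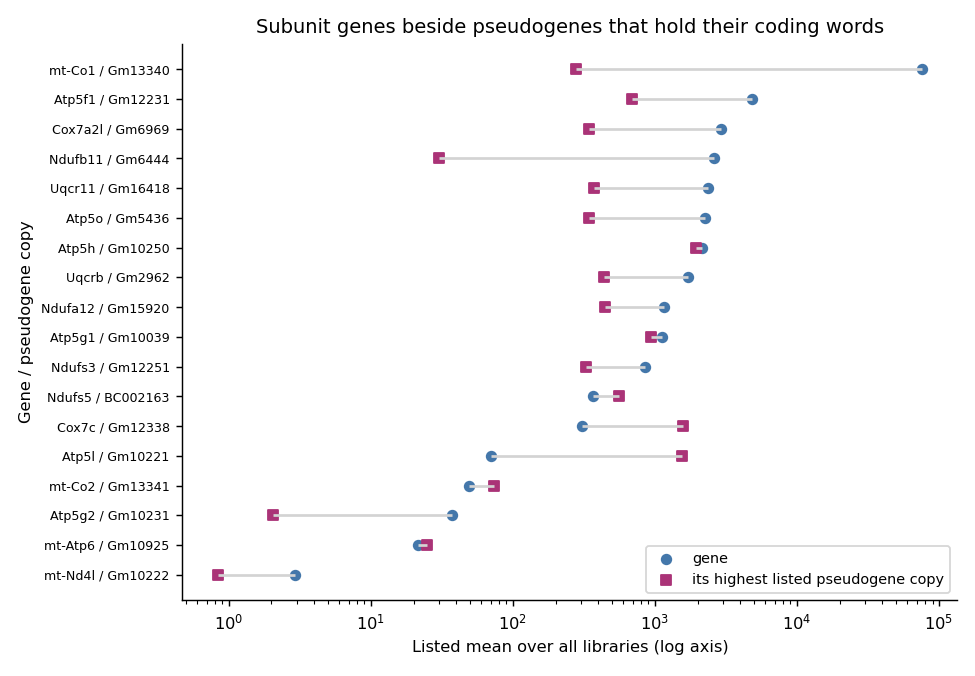
Listed mean over all 6 libraries (log axis) of 18 genes (circles) and of the listed pseudogene copy with the highest mean that holds at least 25% of the gene's coding words (squares). The copy is higher than the gene for Atp5l, Cox7c, Ndufs5, mt-Co2 and mt-Atp6, and lower for the other pairs.

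In the Cox4, Cox6b, Cox7b and Ndufa4 families a broadly expressed form made up nearly all of the level. Shares are of the family's summed level per kb. Cox4i1 held 98.1% of the Cox4 family and Cox4i2, the form of lung and pericytes, 1.85%. Cox6b1 held 97.7% and the testis form Cox6b2 2.29%. Ndufa4 held 98.2% and Ndufa4l2 1.77%. Cox7b held nearly all of its family, with 0.0176% for the testis form Cox7b2. The spermatid genes Tnp1, Tnp2, Prm1 and Prm2 had listed means of 0 to 0.38, near the 0.306 of Cox7b2 and far below the 76.5 of Cox6b2.

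The heart and skeletal muscle forms held a larger part of their families. Cox8b, the muscle form of Cox8, had a listed mean of 1530 (4249 per kb) and held 34.0% of its family, beside 66% for Cox8a. Cox6a2 had 377 (555 per kb) and held 24.0%, beside 76.0% for Cox6a1. Cox7a1 had 822 (1696 per kb) and held 20.0%, beside 49.4% for Cox7a2 and 30.5% for Cox7a2l, and its share was 12.7% by listed mean. With the assembly factor Cox7a2l left out of the total, the share of Cox7a1 was 28.8% per kb and 23.0% by listed mean. All 3 muscle forms had 100% own words, so no stretch of this length in them is shared with another annotated gene.

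The coding sequences of Cox8a (chr19:7215153-7217616, minus strand) and Cox8b (chr7:140898945-140900446, minus strand) are shown as an example of a general and a muscle form. Per kb of the longest transcript the muscle form held more of this family than in Cox6a, but by listed mean Cox8b held 25.2% and Cox6a2 27.3%, and per kb of coding length 24.9% and 30.3%. Neither has a capital, since no 31-base word is shared.
Cox8a: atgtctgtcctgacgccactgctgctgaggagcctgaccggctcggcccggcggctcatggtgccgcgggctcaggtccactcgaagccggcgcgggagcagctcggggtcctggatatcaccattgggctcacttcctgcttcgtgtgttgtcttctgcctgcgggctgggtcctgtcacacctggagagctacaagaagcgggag
Cox8b: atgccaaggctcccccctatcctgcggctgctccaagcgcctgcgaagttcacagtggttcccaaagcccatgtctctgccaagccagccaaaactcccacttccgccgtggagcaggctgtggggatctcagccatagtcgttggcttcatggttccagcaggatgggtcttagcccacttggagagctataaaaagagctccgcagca
In a global alignment 136 of 239 columns (56.9%) were identical, and the sequences shared 0 words of 31 bases. The same count of 0 was found for the Cox6a, Cox7a and Cox4 pairs, which had 58.5%, 62.8% and 66.1% identical columns.

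Skeletal muscle genes were abundant in the same libraries, although the protocol describes trimming muscle from the eyes before the RPE/choroid was scraped off. All 8 muscle markers had a listed mean of at least 10, and their means ranged from 3543 (Tcap) to 51830.0 (Myh4), with a median of 6667 per kb. Acta1, the muscle actin, had 17441, Ckm, the muscle creatine kinase, 12939, Mylpf 12393, Tnnt3 11414, Myh1 18609.9 and Myh2 6379. The part of muscle tissue in the levels of Cox8b, Cox6a2 and Cox7a1 was not tested. All 6 markers of pericytes and smooth muscle were present too, with listed means from 1374 (Cspg4) to 21346 (Rgs5), as values beside those of Cox4i2 and Ndufa4l2. In bulk tissue, fewer cells of a type and less RNA per cell cannot be told apart.

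The proteolipid family of the ATP synthase c ring, Atp5g, was led by Atp5g3. Atp5g3 held 92.4% per kb, with a listed mean of 2517 and 100% own words. Atp5g1 had 1117, and its longest transcript of 4715 bases gave it 6.28% of the family per kb. Its share was 30.4% by listed mean and 31.2% per kb of coding length. Atp5g2 held 1.32%. The 3 genes encode the same mature protein and shared 0 coding words of 31 bases with each other.

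**Figure D3:**
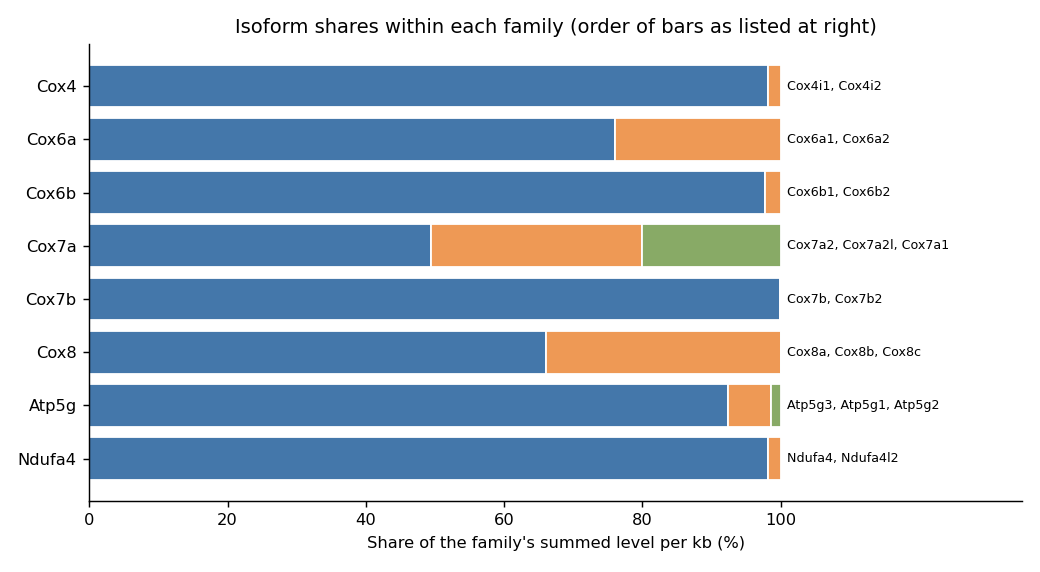
Share (%) of each isoform in its family's summed level per kb, with the bars of a family in the order of the gene names at the right. Cox8b (34.0%), Cox6a2 (24.0%) and Cox7a1 (20.0%), the muscle forms, hold visible parts of their families, while Cox4i2, Cox6b2, Cox7b2 and Ndufa4l2 each hold at most 2.29%, and Cox8c, listed at 0, has no bar.

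The tissue check found the markers of the RPE at high levels. All 8 RPE genes had a listed mean of at least 10, with a median level per kb of 11010.0. Ttr had 99321.5, Rgr 92190.1, Rpe65, the retinoid isomerase, 43745, Rlbp1 30062, Lrat 25214, Rdh5 10046 and Rrh 2292, while Best1 was low at 69.8. Rod photoreceptor genes were present as well, with a median of 3084 per kb and listed means of 13164.5 for Sag, 12334 for Gnat1 and 2159 for Rcvrn. Markers of endothelium and macrophages had medians of 788 and 995 per kb. The pigment genes Dct, Pmel, Tyrp1, Mlana and Tyr, with a median of 21830.5 per kb, are expressed by melanocytes and by the RPE itself and do not tell these apart. The part of each cell type in the subunit levels was not tested.

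Genes that build and control the complexes were lower per kb than the subunit genes. Of 46 assembly factors listed for this purpose, 29 were matched by symbol, with a median level per kb of 178, against 1820.5 for the subunit genes. By listed mean the medians were 383 and 1530.5, a smaller contrast. In the complex I group the highest was Foxred1 (347 per kb) and the lowest Nubpl, an iron-sulfur cluster factor (71.4 per kb). By listed mean Acad9 (1123) lay above Foxred1 (793) and Ndufaf2 (147) below Nubpl (213). In the complex IV group the highest was Surf1 (789 per kb) and the lowest Sco2, a copper chaperone, which was listed at 0. By listed mean Lrpprc (2412) lay above Surf1 (926). Sdhaf2 (221 per kb) and Sdhaf1 (48.4 per kb) were the complex II factors, and Ttc19 (333 per kb) and Lyrm7 (17.0 per kb) were the extremes for complex III. For the ATP synthase, Tmem70 had 346 and Atpaf1 73.5 per kb. Sco2 had 33.5% and Atpaf1 20.1% own coding words, so their levels are uncertain.

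The 10 regulators of mitochondrial gene expression had a median of 109 per kb of the longest transcript. It was 393 with the median transcript length and 266 with coding length. Esrra, a nuclear receptor, was the highest at 427 per kb and Ppargc1b, a coactivator, the lowest at 31.05 per kb. By listed mean Gabpa (1711) lay above Esrra (958) and Tfb1m (97.0) below Ppargc1b (113.5). The 7 subunits, carriers and inhibitors outside the naming patterns had a median of 151 per kb, below the 178 of the assembly factors. That order turned by listed mean (483 against 383) and per kb of coding length (1432 against 536). Usmg5, the gene at the median of 151, had 0% own coding words, as had Ndufab1 and Cycs. Cox17, at the median of the assembly factors, also had 0%, so these medians are uncertain. Among them 2010107E04Rik, a small ATP synthase subunit, was the highest at 4579 per kb. Cyct, the testis cytochrome c, was the lowest at 0.774 per kb.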

How the data were processed

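Total RNA of the RPE/choroid of 6 C57BL/6J mice, 3 per age group, was depleted of ribosomal RNA and sequenced as stranded libraries. Per the methods of the study, the authors trimmed reads with BBDuk, aligned them to Ensembl GRCm38 transcripts with STAR, estimated TPM, a unit already scaled by transcript length, with Sailfish and turned them into normalized counts by the total count method. The deposited signal is headed baseMean, read here as the mean of normalized values over all 6 libraries. Whether the comparison tool's own scaling was added is not given in the sources used here. The other 5 columns hold the authors' own comparison of young and aged mice by DESeq2 (log2 fold change, its standard error, Wald score, p-value and adjusted p-value) and were not used. No column holds a value per library, so no spread, test or depth per library could be given.

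Lengths, coding sequences and 31-base words were taken from GENCODE M21 (GRCm38), whose release differs from that of the authors. All 99 genes matched, 3 of them through an older symbol, and 28557 genes of the table matched a length. Listed means rose with transcript length over 13850 protein-coding genes with a mean of at least 10 (Spearman correlation 0.29, across genes, as a description), so levels were divided by the longest protein-coding transcript. Word counts were tested on simulated data. Sequences were aligned with Biopython 1.88. Python 3.11.15, numpy 2.4.6 and pandas 2.3.3 were used. Genes named are all mitochondrial genes, the 3 highest and 3 lowest nuclear genes per kb of each complex, genes listed at 0, the isoform families, the extremes of the other pathway lists and the tissue markers, some of which are not reported here. The pseudogene copies, the groups by role within a complex and genes named for their copies were chosen after values were seen. The genes and lists were chosen with earlier results of these data known. Alternatives were other lengths, filters on low means or shared words, and other assignments of genes to complexes.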

Additional observations from a re-analysis of the deposited data

How the results depend on the processing

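No paired analysis was possible because each gene has a pooled mean only, and leaving out a library could not be run for the same reason. A value was taken as moved where it changed by 1.5 times or more. The order of the complexes by median level per kb (III, II, V, IV, I) was also found with the median transcript length and with coding length, although coding length raised the medians to 2876 for complex I, 4608 for II, 3032 for IV and 4408 for V. Complex V, at 2566, lay above complex II, at 2244, with means under 10 left out or with genes under 50% own words left out. The same held with Cox7a2l, Atp5s and Atp5sl left out. Without division by length the order was II, III, V, I, IV. The share of the mitochondrial genes in the summed listed means fell from 32.5% to 14.6% of the levels per kb of coding length, and to 9.21% without genes under 50% own words, which leaves out mt-Co1. Adding the listed mean of the highest pseudogene copy to each gene, chosen after seeing the data, gave 31.6%. The ratio of the mitochondrial to the nuclear median, 1.00, was 0.58 per kb of coding length, 0.59 without division by length, and 1.40 without genes under 50% own words, the last chosen after seeing the data. By listed means in place of levels per kb, the ratio of mt-Nd4l to mt-Nd4 was 0.00101 and that of mt-Atp8 to mt-Atp6 0.207. The medians of the other pathway lists rose with coding length, to 536 for complex I assembly, 1041 for complex II, 187 for complex III, 565 for complex IV, 399.6 for ATP synthase and 536 for all assembly factors, 266 for regulators and 1432 for subunits and carriers outside the naming patterns. With the median transcript length they were 230.1 for complex II assembly, 393 for regulators and 1137 for those subunits and carriers. Medians without division by length are not set beside these, since their unit differs. By listed mean the share of Ndufa4l2 in its family was 2.69% and that of Cox7b2 0.00953%, which was 0.0093% per kb of coding length. Of all values recomputed, 27 moved, those of Cox7a1 and Atp5g1 included, and 63 moved by less than 1.5 times. The shares without Cox7a2l were chosen after seeing the data. The depth of each library is not shown by the table, so no limit set by depth is given for any gene.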

Other observations

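The 5 mitochondrial tRNA genes between mt-Co1 and mt-Nd4 had listed means of 0 to 3.79, with 3 of them (mt-Ts1, mt-Td and mt-Tk) listed at 0, mt-Tg at 3.06 and mt-Tr at 3.79. All 5 had 100% own words of 31 bases within the annotated transcripts, and nuclear stretches without annotation were not compared. The tRNA genes are also shorter than the reads of 100 bases, a limit on such low means. The other 17 tRNA genes ranged from 0 (mt-Tv) to 807 (mt-Tn), with a median of 5.83, so the ranges overlapped: mt-Tv, mt-Tt (0.148), mt-Tf (0.779), mt-Tl1 (1.13) and mt-Tw (2.86) lay within that of the 5. The difference was not tested. Next in order were mt-Tc with 724 and mt-Tp with 234. mt-Tn, mt-Tc and mt-Tp are all encoded on the minus strand, as are mt-Ta with 20.6, mt-Ty with 23.3, mt-Te with 10.4, mt-Tq with 5.43 and mt-Ts1, listed at 0.

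The ribosomal RNAs of the mitochondrial genome were unequal in the same table, although ribosomal RNA had been depleted. mt-Rnr2, the large ribosomal RNA, had a listed mean of 101174 (63953 per kb), and mt-Rnr1, the small ribosomal RNA, had 4265 (4466 per kb). Both thus lay in the range of the subunit genes outside the stretch from mt-Co2 to mt-Nd4l or above it.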
